A study of Mus musculus with 6 samples.

Results

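The MEF2 transcription factors, serum response factor (SRF) and their cofactors were described in RNA sequencing of muscle satellite cells (SCs) from wild-type (WT) and lactoferrin knockout (*Ltf*-KO) mice. The 10 genes, taken by name from the deposited table of 55416 genes, were *Mef2a*, *Mef2b*, *Mef2c*, *Mef2d*, *Srf*, the coactivators *Mrtfa* and *Mrtfb*, and the class IIa histone deacetylases *Hdac4*, *Hdac5* and *Hdac9*. Each name occurred in 1 row. All 10 genes were detected in all 6 libraries, and none of them differed between the genotypes beyond the spread of the libraries. *Mef2a* was the most abundant, *Mef2a* and *Mef2d* together made up most of the *Mef2* transcripts, *Hdac5* made up most of the class IIa deacetylase transcripts, and *Hdac9* lay near 1 TPM.

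The study asked how loss of lactoferrin, an iron-binding glycoprotein of milk and other secretions, affects SCs, the stem cells of skeletal muscle. Both groups were SCs from the hind leg muscles of adult mice, sorted as Sca1-/CD11b-/CD34+/α7-integrin+ cells and grown for 4 days on Matrigel in medium with fetal bovine serum, chick embryo extract and basic fibroblast growth factor, with no further treatment. The *Ltf*-KO mice carried a systemic deletion of exons of *Ltf*, made with CRISPR-Cas9 in C57/BL6N zygotes, so the gene was lost in every tissue and not in SCs alone. Each genotype had 3 libraries. The labels do not say whether the libraries of a genotype came from separate mice, so the p-values measure the spread between these libraries, which may be technical.

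MEF2 proteins and SRF are MADS-box factors that bind short AT-rich sequences in DNA as dimers. MEF2 factors work with MyoD and myogenin to switch on the genes of the contractile apparatus when myoblasts differentiate, and class IIa deacetylases bind MEF2 and hold it inactive until kinases such as CaMK and protein kinase D send them out of the nucleus. SRF binds the CArG box, a run of A and T bases between a pair of Cs and a pair of Gs, and is directed either by MRTF coactivators, which monomeric actin keeps out of the nucleus, or by ternary complex factors (TCFs), which ERK phosphorylates. The deposited annotation listed the SRF-type DNA-binding domain for 5 genes of the whole table, which were the 4 *Mef2* genes and *Srf*. It listed the actin-binding RPEL repeat for 7 genes, *Mrtfa* and *Mrtfb* among them, and the glutamine-rich N-terminal domain of class IIa deacetylases for 3 genes, which were *Hdac4*, *Hdac5* and *Hdac9*. *Mef2c* and *Srf* were the 2 members among the 292 genes annotated to the MAPK signaling pathway, the pathway the study was concerned with.

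Some of the 10 genes carry in their own promoters the letters that MEF2 or SRF bind, and these promoters are shown for that reason. RefSeq promoter windows of GRCm38.p6, from 250 bases before to 50 bases after a start site, were matched by symbol for all 10 genes, which had 16 windows. Both strands were searched for the CArG box and for the MEF2 site, and the 2 motifs share no match here. The *Srf* window held 2 CArG boxes, starting 82 and 62 bases before the start site, while 1.63% of all 32851 windows held at least 1. A MEF2 site lay in 1 window each of *Mef2a*, *Hdac5* and *Mrtfb*, while 3.19% of all windows held one. The *Mef2a* match started 2 bases before the start site and the *Hdac5* match 20 bases before it, and the *Mrtfb* match lay 165 bases before the most downstream of 3 annotated starts. The stretches with the matches in capitals, 5′ to 3′ on the strand of the gene, were at chr17:46556163-46556282 (minus strand) for *Srf*, chr7:67372849-67372968 (minus) for *Mef2a*, chr11:102230173-102230292 (minus) for *Hdac5* and chr16:13358221-13358290 (plus) for *Mrtfb* in GRCm38.p6.
Srf: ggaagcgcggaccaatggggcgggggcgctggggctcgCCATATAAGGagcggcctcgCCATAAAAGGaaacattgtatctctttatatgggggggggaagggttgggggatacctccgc
Mef2a: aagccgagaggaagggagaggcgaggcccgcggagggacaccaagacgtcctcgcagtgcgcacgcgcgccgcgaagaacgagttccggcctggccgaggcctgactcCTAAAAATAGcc
Hdac5: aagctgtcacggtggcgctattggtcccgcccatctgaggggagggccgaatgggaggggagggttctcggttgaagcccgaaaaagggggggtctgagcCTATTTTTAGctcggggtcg
Mrtfb: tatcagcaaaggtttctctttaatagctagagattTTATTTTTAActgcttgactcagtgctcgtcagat
A match is a description of the letters and not a measured binding site.

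The summed values of the libraries ran from 993650 to 994356 TPM (transcript abundance, reads divided by gene length and scaled to a common total), a likeness that the scaling sets. The libraries were also alike in their number of genes at 1 TPM or more, from 12828 to 12951. TPM keeps no read number, so the depth is unknown. The targeted gene *Ltf* was listed at 0.12, 0.02 and 0.02 TPM across WT libraries and 0.02, 0.03 and 0 TPM across *Ltf*-KO libraries, so its level does not check the labels here. The defining markers of SCs and myoblasts (*Pax7*, *Myf5*, *Myod1*, *Cdh15*, *Itga7* and *Des*) were all above 1 TPM in every library, and their sum ran from 1839 to 1893 TPM in WT and from 1871 to 1919 TPM in *Ltf*-KO. *Myod1* was at 778 ± 34.6 TPM (SD, n = 3) for WT against 780 ± 30.1 TPM (SD, n = 3) for *Ltf*-KO SCs. Of 10 macrophage markers 3 (*Cd14*, *Cd68* and *Lyz2*) had a mean of at least 1 TPM, and the pan-leukocyte gene *Ptprc* was at 0.16 TPM or less in every library. *Lyz2* was at 7.22, 2.31 and 0.38 TPM across WT libraries and at 1.11 TPM or less in *Ltf*-KO. The genotypes were compared with limma on log2(TPM + 1) over the 12956 genes averaging 1 TPM or more, and p-values were adjusted after Benjamini and Hochberg. Adding 1 to the TPM makes fold changes of scarce transcripts come out too small. In bulk RNA, fewer cells of a kind and less RNA per cell cannot be told apart.

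*Mef2a* and *Mef2d*, which are expressed in many tissues, were the 2 main *Mef2* transcripts. *Mef2a* was at 92.2, 105 and 95.6 TPM across WT libraries and 103, 94.1 and 106 TPM across *Ltf*-KO libraries. *Mef2d* was at 68.2, 65.01 and 63.3 TPM in WT and at 69.2, 68.2 and 64.8 TPM in *Ltf*-KO. In both genes the libraries of the genotypes overlapped. The log2 fold change was 0.048 (95% confidence interval -0.11 to 0.21) for *Mef2a* and 0.041 (-0.071 to 0.15) for *Mef2d*, with a limma adjusted p of 0.999 for each. *Mef2a* lay above 89.2% of the tested genes in mean level.

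*Mef2c*, the *Mef2* gene most closely tied to muscle and heart development, varied most among the *Mef2* genes. It was at 10.5, 14.9 and 12.1 TPM in WT and at 14.9, 9.95 and 16.6 TPM in *Ltf*-KO SCs. The lowest and the highest value were both in *Ltf*-KO libraries, so the genotypes overlapped fully. The log2 fold change was 0.12 (95% confidence interval -0.37 to 0.60, limma adjusted p = 0.999), and -0.023 without *Ltf*-KO replicate 3. Its coefficient of variation over the 6 libraries was 20.4%, against a median of 8.08% among the 2670 tested genes within 1.5-fold of its level, and 92.4% of those genes varied less. *Mef2a* had a coefficient of variation of 6.18% and *Mef2d* of 3.59%.

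*Mef2b*, the most divergent member of the family and best known from lymphocytes, was at 5.42, 5.91 and 5.85 TPM in WT and at 6.49, 4.77 and 4.64 TPM in *Ltf*-KO SCs. The WT libraries lay between the *Ltf*-KO libraries. Its log2 fold change was -0.11 (95% confidence interval -0.41 to 0.20, limma adjusted p = 0.999). Without *Ltf*-KO replicate 1 it was -0.24, with an unadjusted p of 0.0402 and an adjusted p of 1 by limma. In the GENCODE M21 annotation of GRCm38, *Mef2b* on chromosome 8 shares exons on the same strand with *Borcs8*, a lysosome-positioning gene with a mean of 31.5 TPM, so reads of *Borcs8* and *Mef2b* may not be told apart and the level of *Mef2b* is uncertain. On the opposite strand, exons of *Mrtfa* overlap those of *Sgsm3* (mean 14.8 TPM) and exons of *Mef2a* those of *Lysmd4* (3.73 TPM), among others. If the libraries did not keep the strand, the levels of *Mrtfa* and *Mef2a* are uncertain too.

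**Figure D1:**
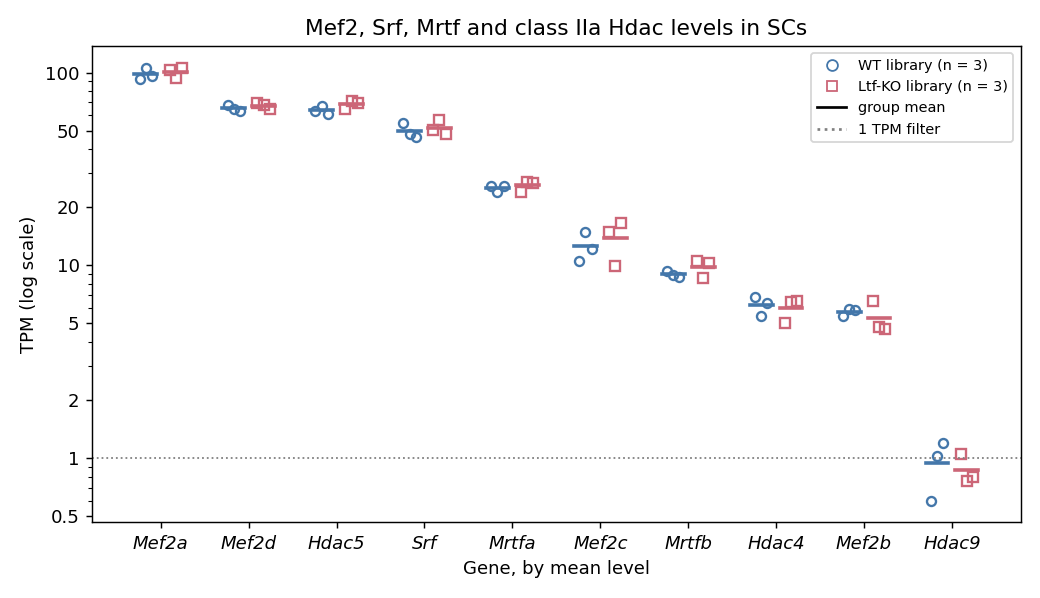
Level of the 10 genes in SCs, in TPM on a log axis, ordered by mean. Each open symbol is a library (circles WT, squares *Ltf*-KO, n = 3 each), short bars are group means and the dotted line is the filter at 1 TPM. The genotypes overlapped for every gene, from *Mef2a* with a mean of 99.4 TPM to *Hdac9* with 0.903 TPM.

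The composition of the *Mef2* transcript pool was alike in the genotypes. *Mef2a* made up 53.8% ± 1.43 (SD, n = 3) of the summed *Mef2* TPM in WT and 53.9% ± 1.17 (SD, n = 3) in *Ltf*-KO SCs. *Mef2d* made up 36.1% ± 2.37 (SD, n = 3) and 36.005% ± 2.41 (SD, n = 3). *Mef2c* made up 6.87% ± 0.92 (SD, n = 3) and 7.31% ± 1.54 (SD, n = 3), and *Mef2b* 3.16% ± 0.131 (SD, n = 3) and 2.82% ± 0.482 (SD, n = 3). In each case the difference between the means was smaller than the larger of both SDs. The share of *Mef2c* ran from 5.62% to 8.63% over the 6 libraries, and that of *Mef2b* from 2.41% to 3.35%. The values are totals per gene and do not separate splice forms, such as the muscle form of *Mef2d*.

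**Figure D2:**
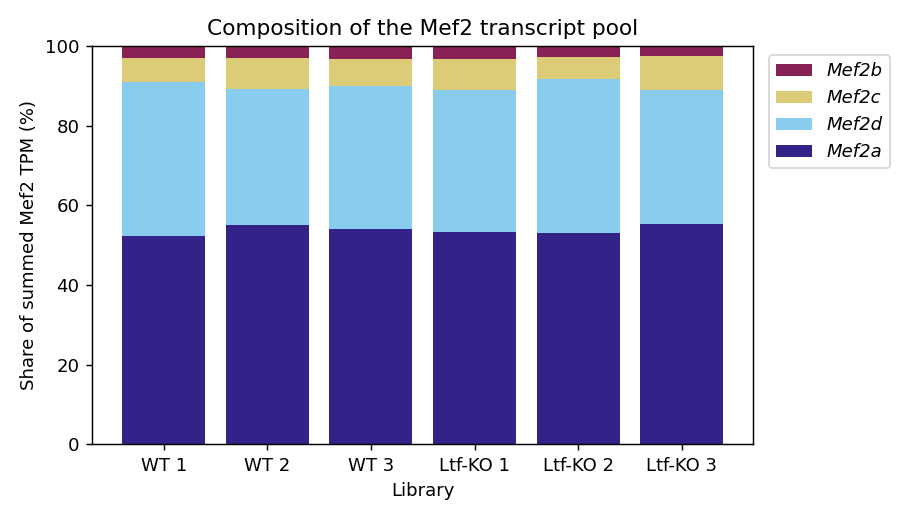
Share of each *Mef2* gene in the summed *Mef2* TPM, in percent, as stacked bars for the 3 WT and 3 *Ltf*-KO libraries. *Mef2a* filled 52.3% to 55.2% of the pool and *Mef2d* 33.7% to 38.7% in every library.

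*Srf* was at 54.6, 47.95 and 46.04 TPM across WT libraries and 50.2, 57.05 and 47.8 TPM across *Ltf*-KO libraries. The highest value was in *Ltf*-KO replicate 2 and the next in WT replicate 1, and the genotypes overlapped. The log2 fold change was 0.060 (95% confidence interval -0.15 to 0.27, limma adjusted p = 0.999), and -0.012 without *Ltf*-KO replicate 2. *Srf* lay above 78.9% of the tested genes in mean level.

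The coactivator *Mrtfa* was at 25.7, 23.9 and 25.8 TPM in WT and at 24.05, 27.1 and 26.8 TPM in *Ltf*-KO SCs. *Mrtfb*, its paralogue, was at 9.32, 8.86 and 8.67 TPM in WT and at 10.5, 8.63 and 10.2 TPM in *Ltf*-KO SCs. For both genes an *Ltf*-KO library lay inside or below the WT range. *Mrtfa* differed by 0.046 on the log2 scale (95% confidence interval -0.11 to 0.20) and *Mrtfb* by 0.11 (-0.095 to 0.32), each with a limma adjusted p of 0.999. Without *Ltf*-KO replicate 2, the library in which *Mrtfb* was lowest, its log2 fold change was 0.19, with an unadjusted p of 0.0409 and an adjusted p of 0.98 by limma. *Mrtfa* supplied 73.7% ± 0.994 (SD, n = 3) of the summed *Mrtf* TPM in WT and 72.6% ± 3.1 (SD, n = 3) in *Ltf*-KO SCs. The *Mrtf* sum was 0.691 ± 0.0541 (SD, n = 3) times the TPM of *Srf* in WT and 0.696 ± 0.0747 (SD, n = 3) times in *Ltf*-KO. RNA levels say nothing of where MRTF proteins lie in the cell.

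Of the class IIa deacetylases, which repress MEF2, *Hdac5* was at 62.8, 67.3 and 60.9 TPM in WT and at 64.6, 70.8 and 69.5 TPM in *Ltf*-KO SCs. Both highest values were in *Ltf*-KO libraries, but WT replicate 2 lay above *Ltf*-KO replicate 1. Its log2 fold change was 0.099 (95% confidence interval -0.036 to 0.23), with an unadjusted p of 0.124, the smallest of the tested members, and an adjusted p of 0.999 by limma. *Hdac4* was at 6.86, 5.48 and 6.35 TPM in WT and at 5.02, 6.43 and 6.55 TPM in *Ltf*-KO SCs. Its log2 fold change was -0.050 (95% confidence interval -0.35 to 0.25, limma adjusted p = 0.999), and the sign turned to 0.013 without WT replicate 1 and to 0.055 without *Ltf*-KO replicate 1. *Hdac9*, itself a known target of MEF2 in muscle, was at 0.6, 1.02 and 1.19 TPM in WT and at 1.05, 0.76 and 0.8 TPM in *Ltf*-KO SCs. Its mean of 0.903 TPM was under the filter, so it was not in the fit, and its difference on the log2(TPM + 1) scale was -0.041 (two-sided exact permutation p = 0.9, where the smallest possible is 0.1). *Hdac5* supplied 89.9% ± 1.17 (SD, n = 3) of the summed TPM of the 3 deacetylases in WT and 90.9% ± 0.491 (SD, n = 3) in *Ltf*-KO SCs. Their sum was 0.391 ± 0.00709 (SD, n = 3) times the *Mef2* sum in WT and 0.402 ± 0.0378 (SD, n = 3) times in *Ltf*-KO. The SD of this ratio was larger in *Ltf*-KO, where it ran from 0.365 in replicate 1 to 0.44 in replicate 2.

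In order of mean TPM, which is per length and so can be set side by side between genes, the members ran *Mef2a*, *Mef2d*, *Hdac5*, *Srf*, *Mrtfa*, *Mef2c*, *Mrtfb*, *Hdac4*, *Mef2b* and *Hdac9*. The ranges over the 6 libraries overlapped for 3 neighbouring pairs. *Mef2d* and *Hdac5* were at 66.5 and 65.98 TPM on average and each was the higher in 3 libraries. *Hdac4* and *Mef2b* were at 6.12 and 5.51 TPM. *Mef2c* and *Mrtfb* were at 13.2 and 9.36 TPM, with *Mef2c* the higher in each of the 6 libraries. The other neighbours did not overlap.

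Across the members, 9 passed the filter on low values and were tested. By limma, 0 passed 0.05 after adjustment and 0 before it. Among all 12956 tested genes these shares were 0% and 3.78% (2.01% higher and 1.78% lower in *Ltf*-KO), with 490 genes at an unadjusted p under 0.05, of which 230 were lower in *Ltf*-KO (305 of 508 after quantile normalization and 280 of 502 with median-of-ratios scaling). The count of tested members whose libraries did not overlap was 0, against 8.46% of all tested genes (4.73% higher and 3.73% lower in *Ltf*-KO). The log2 fold change was above 0 for 7 members and below 0 for *Mef2b* and *Hdac4*, with a median of 0.048, beside a median of 0.011 over all tested genes, of which 55.7% were above 0. None of these signs turned with quantile normalization or median-of-ratios scaling. The 95% confidence intervals bound the differences of TPM + 1 that these libraries leave possible, and such bounds are too narrow for scarce transcripts. For *Hdac4* the standard error was 0.12, and 0.14 with a pseudocount of 0.1, so its interval was wider there. With the pseudocount of 1, the intervals lay within 1.3-fold in either direction for 7 members (*Mef2a*, *Mef2d*, *Srf*, *Mrtfa*, *Mrtfb*, *Hdac4* and *Hdac5*). They lay within 1.5-fold also for *Mef2b*, while that of *Mef2c* reached 1.51-fold higher in *Ltf*-KO. With any 1 library left out, 0 or 1 members had an unadjusted p under 0.05.

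**Figure D3:**
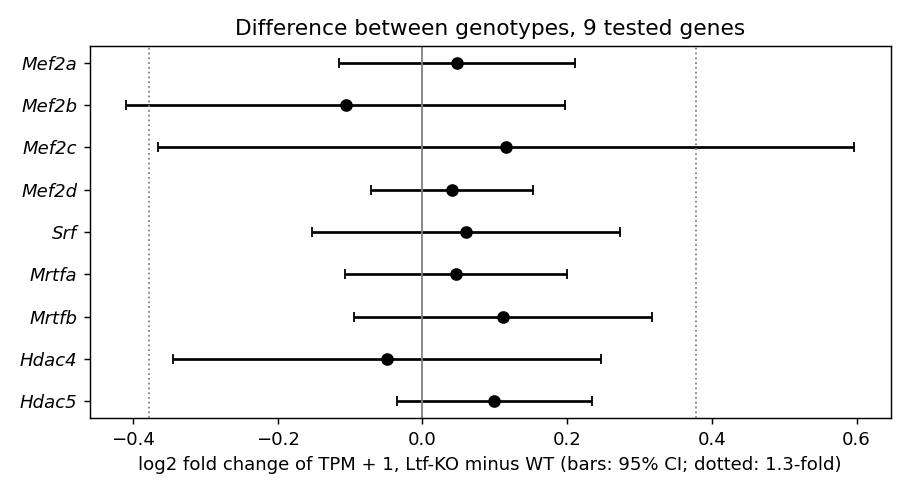
log2 fold change of TPM + 1, *Ltf*-KO minus WT, for the 9 tested members (points), with 95% confidence intervals from limma (bars) and dotted lines at 1.3-fold. All 9 intervals hold 0, and that of *Mef2c* is the widest, from -0.37 to 0.60.

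*Mef2a* and *Mef2c* varied alike from library to library within both genotypes. Both were above their 6-library mean in WT replicate 2 and in *Ltf*-KO replicates 1 and 3, and below it in the other libraries. The likeness of 2 patterns was measured as the root-mean-square difference of z-scores of log2(TPM + 1) over the 6 libraries, where 0 is an identical pattern. It was 0.249 between *Mef2c* and *Mef2a*, with 21 genes nearer to *Mef2c* among those averaging 10 TPM or more. The value was 1.49 between *Mef2c* and *Mef2d*, and 1.7 between *Mef2c* and *Srf*. The nearest of 8066 genes outside the family were *Cobl*, an actin nucleator, at 0.121, *Mtrex*, a helicase of the nuclear RNA exosome, at 0.147 and *Airn*, an imprinted noncoding RNA, at 0.149. For *Srf* they were *Fen1*, a nuclease of DNA replication, at 0.117, *Ssbp4* at 0.144 and *Nbl1*, a secreted antagonist of BMP, at 0.15. With so many genes and 6 libraries, close patterns arise in number, and these values are a description.

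The same libraries differed in muscle differentiation. The 26 listed differentiation genes (myogenin, fusion factors, sarcomere and acetylcholine receptor genes) summed to 6495 TPM in WT replicate 2 and 7492 TPM in *Ltf*-KO replicate 3, and to between 4916 and 5640 TPM in the other 4 libraries. *Mef2c* was highest in *Ltf*-KO replicate 3, followed by WT replicate 2 and *Ltf*-KO replicate 1, and the mean log2(TPM + 1) of the differentiation genes had the same 3 libraries on top in that order. Below them the orders parted, since *Mef2c* was lowest in *Ltf*-KO replicate 2 and the differentiation genes in WT replicate 3. *Srf* was highest in *Ltf*-KO replicate 2 and lowest in WT replicate 3, and so was the mean log2(TPM + 1) of 30 listed SRF-MRTF target genes, which was 0.093 above and 0.058 below its 6-library mean there. The mean of 12 smooth muscle and pericyte markers, which share *Acta2*, *Tagln* and *Cnn1* with the SRF-MRTF targets, had the same extremes, 0.11 above and 0.11 below. That of 12 fibroblast markers was also highest in *Ltf*-KO replicate 2, at 0.25 above. The part of differentiation and of these markers in the levels of the members was not tested.

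**Figure D4:**
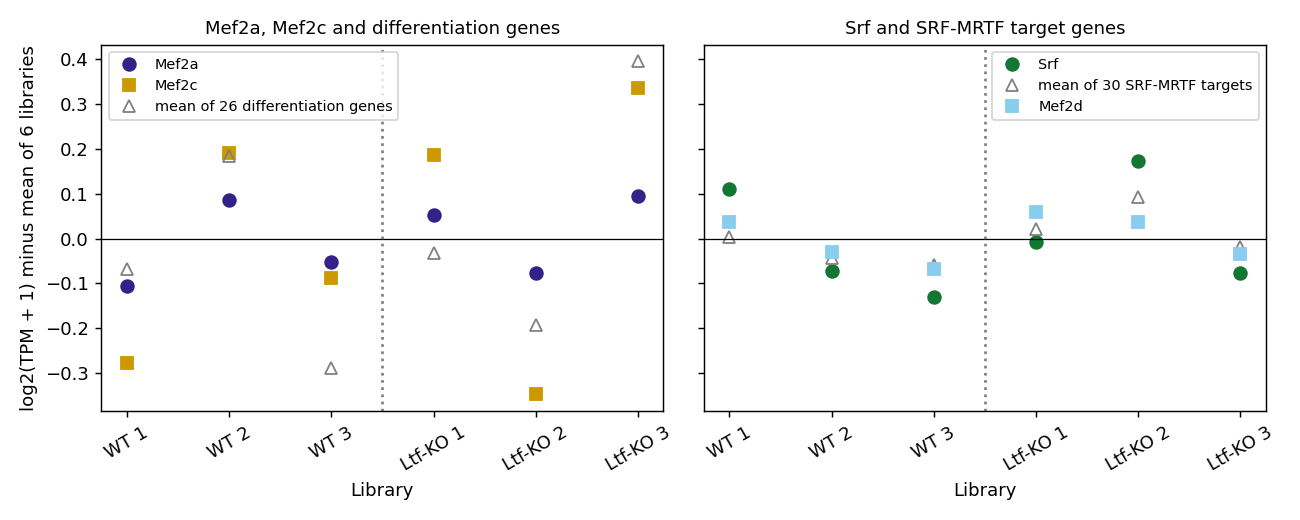
log2(TPM + 1) minus the mean of the 6 libraries, by library, for *Mef2a*, *Mef2c* and the mean of 26 differentiation genes (left) and for *Srf*, *Mef2d* and the mean of 30 SRF-MRTF targets (right), with the genotypes split by the dotted line. *Mef2c* ranged from 0.35 below its mean in *Ltf*-KO replicate 2 to 0.34 above it in *Ltf*-KO replicate 3, and *Srf* from 0.13 below to 0.17 above.

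The factors that act on MEF2 were measured beside it. Of 35 listed regulators (deacetylases, SIK, CaMK and protein kinase D enzymes, calcineurin, acetyltransferases and E proteins) 34 were tested, 1 had an unadjusted p under 0.05 and 0 an adjusted p under 0.05 by limma, near the 3.78% of all tested genes at an unadjusted p under 0.05. The median log2 fold change was 0.028. The 1 gene was *Camk2g*, a calcium-dependent kinase of the family that phosphorylates class IIa deacetylases, at 45.6 ± 1.66 TPM (SD, n = 3) for WT against 53.5 ± 3.19 TPM (SD, n = 3) for *Ltf*-KO SCs, a log2 difference of 0.22 (standard error 0.056, limma unadjusted p = 0.00636, adjusted p = 0.999). Its 3 *Ltf*-KO libraries, at 51.5, 57.1 and 51.7 TPM, lay above its WT libraries at 47.5, 44.6 and 44.7 TPM. Of the other regulators, *Ncor1* (higher in *Ltf*-KO) and the CaMK gene *Camk2a* (lower) also did not overlap between genotypes, named after their values were seen. This made 3 of the 34 tested regulators without overlap, near the 8.46% of all tested genes. *Camk2a* was at 2.85 ± 0.127 and 2.19 ± 0.382 TPM (SD, n = 3 each), a log2 difference of -0.27 with a limma unadjusted p of 0.0698 (adjusted p = 0.999). Among the most abundant regulators were *Tcf12*, an E protein that pairs with MyoD, at 105 ± 3.17 and 109 ± 1.5 TPM (SD, n = 3 each) and *Hdac3*, the catalytic partner of class IIa deacetylases, at 73.04 ± 2.49 and 73.3 ± 4.11 TPM (SD, n = 3 each) in WT and *Ltf*-KO.

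Genes known as MEF2 targets were tested for 22 of 26 listed, with 2 at an unadjusted p under 0.05, both higher in *Ltf*-KO (2.01% of all tested genes), and 0 at an adjusted p under 0.05 by limma. The median log2 fold change was 0.13 and 19 genes were above 0, beside 0.011 and 55.7% over all tested genes. With 1 library left out, the median was lowest without *Ltf*-KO replicate 3 (0.063) and WT replicate 3 (0.078). It was highest without *Ltf*-KO replicate 2 (0.23) and WT replicate 2 (0.25). In these 4 fits 1, 1, 2 and 5 genes had an unadjusted p under 0.05. The 2 genes were *Xirp2*, a muscle actin-binding protein, at 2.64 ± 0.116 TPM (SD, n = 3) for WT against 3.55 ± 0.106 TPM (SD, n = 3) for *Ltf*-KO (log2 fold change 0.32, standard error 0.094, limma adjusted p = 0.999), and *Mb*, the oxygen carrier myoglobin, at 59.8 ± 7.66 and 73.6 ± 6.89 TPM (SD, n = 3 each; log2 fold change 0.30, standard error 0.11, limma adjusted p = 0.999). The libraries of *Xirp2* did not overlap, which made 1 of the 22 tested targets, beside 8.46% of all tested genes. Those of *Mb* did overlap, and *Mb* had an unadjusted p above 0.05 by limma with WT replicate 1 or 3 or *Ltf*-KO replicate 2 or 3 left out. The most abundant were the differentiation factor *Myog* at 341 ± 61.4 and 378 ± 122 TPM (SD, n = 3 each), *Jun* at 120 ± 1.99 and 117 ± 2.62 TPM (SD, n = 3 each), and the giant sarcomere protein gene *Neb* at 91.05 ± 10.3 and 100.05 ± 10.1 TPM (SD, n = 3 each) in WT and *Ltf*-KO. Of 18 listed targets with a promoter window, 6 (*Jun*, *Klf2*, *Klhl41*, *Myoz2*, *Ttn* and *Xirp2*) held the MEF2 site. By window this was 28.6% of 21, beside 3.19% of all windows. The list was drawn up from known targets, so the share is a description.

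Of the 26 differentiation genes, which share *Myog* and *Ckm* with the MEF2 targets, 25 were tested, and 0 passed at either p by limma. The log2 fold change was above 0 for 24 of the 25 (55.7% of all tested genes), with a median of 0.13. The other gene was the cell cycle inhibitor *Cdkn1c* (chosen after its values were seen). But without *Ltf*-KO replicate 3 the median was -0.038 and 6 of 25 were above 0, and without WT replicate 3 it was 0.018. With WT replicate 2 or *Ltf*-KO replicate 2 left out it was 0.27 or 0.28, with 24 of 25 above 0 in each. The most abundant were the light chain gene *Mylpf* at 1006 ± 188 and 1077 ± 293 TPM (SD, n = 3 each), skeletal actin *Acta1* at 926 ± 121 and 1029 ± 186 TPM (SD, n = 3 each) and the receptor subunit *Chrna1* at 514 ± 2.38 and 519 ± 9.22 TPM (SD, n = 3 each) in WT and *Ltf*-KO. *Chrna1* varied little over the libraries, while *Mylpf* and *Acta1* varied more.

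SRF-MRTF targets, mostly genes of the actin cytoskeleton, were tested for 29 of 30 listed, with 2 at an unadjusted p under 0.05, both higher in *Ltf*-KO (2.01% of all tested genes), and 0 at an adjusted p under 0.05 by limma. The median log2 fold change was 0.057 and 23 genes were above 0 (55.7% of all tested genes). Without *Ltf*-KO replicate 2 the median was 0.036 and 17 genes were above 0, with 6 genes at an unadjusted p under 0.05. With WT replicate 1 left out the median was 0.098, and with *Ltf*-KO replicate 3 left out 27 genes were above 0 and 4 at an unadjusted p under 0.05 (1 each with WT replicate 2 or 3 left out). *Pdlim7*, a PDZ-LIM adaptor of actin filaments, was at 140.2 ± 1.64 TPM (SD, n = 3) for WT against 153 ± 1.06 TPM (SD, n = 3) for *Ltf*-KO SCs (log2 fold change 0.13, standard error 0.030, limma unadjusted p = 0.00451, adjusted p = 0.999). *Tagln*, a calponin-like actin-binding protein, was at 60.04 ± 0.703 and 72.4 ± 9.87 TPM (SD, n = 3 each; log2 fold change 0.26, standard error 0.091, limma adjusted p = 0.999), and the libraries of neither gene overlapped between genotypes. Without overlap were thus 2 of the 29 tested targets, beside 8.46% of all tested genes. *Tagln* had an unadjusted p above 0.05 by limma with any 1 WT library left out. The most abundant were *Actb* at 3659 ± 174 and 3626 ± 161 TPM (SD, n = 3 each), *Actg1* at 3442 ± 128 and 3456 ± 158 TPM (SD, n = 3 each) and the actin-severing *Cfl1* at 1689 ± 28.2 and 1660.3 ± 57.7 TPM (SD, n = 3 each) in WT and *Ltf*-KO, each with a difference smaller than the larger SD. Of 25 listed targets with a promoter window, 8 (*Actg1*, *Cnn2*, *Fhl1*, *Fhl2*, *Filip1l*, *Lima1*, *Myl9* and *Vcl*) held a CArG box. By window this was 30% of 30, beside 1.63% of all windows, and this list too was drawn up from known targets.

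The other arm of SRF, the TCFs *Elk1*, *Elk3* and *Elk4* with *Srf* and the immediate early genes, had 13 listed genes, all tested. Of these, 1 had an unadjusted p under 0.05 and 0 an adjusted p under 0.05 by limma, beside 3.78% and 0% of all tested genes. The 1 gene was *Egr2*, a zinc-finger immediate early gene with an unadjusted p of 0.048 by limma. It was at 3.79 ± 0.265 TPM (SD, n = 3) for WT against 5.1 ± 0.977 TPM (SD, n = 3) for *Ltf*-KO SCs. The libraries of *Egr2* overlapped between genotypes, and its unadjusted p was 0.076 by limma with the replicate number as a block and was above 0.05 in 8 of 12 alternatives, among them each library left out except *Ltf*-KO replicate 3. The median log2 fold change was 0.030, and -0.0053 without *Ltf*-KO replicate 1, -0.012 without *Ltf*-KO replicate 2 and 0.11 without *Ltf*-KO replicate 3, where 13 of 13 genes were above 0 and 2 had an unadjusted p under 0.05. The most abundant were *Junb* at 121 ± 3.76 and 122 ± 8.57 TPM (SD, n = 3 each), *Egr1* at 104 ± 1.64 and 99.2 ± 12.8 TPM (SD, n = 3 each) and *Ier2* at 61.4 ± 3.58 and 59.7 ± 5.54 TPM (SD, n = 3 each) in WT and *Ltf*-KO. Of the 20 listed genes of the MRTF-actin switch (small GTPases, ROCK, formins, LIM kinases and actin-binding proteins) 16 were tested and 0 passed at either p by limma, with a median log2 fold change of 0.032, and 0.012 without *Ltf*-KO replicate 1. *Pfn1* was at 2311 ± 120 and 2312 ± 55.7 TPM (SD, n = 3 each), *Rhoa* at 356 ± 4.57 and 365 ± 1.95 TPM (SD, n = 3 each) and *Rhoc* at 246 ± 20.7 and 242 ± 28.2 TPM (SD, n = 3 each) in WT and *Ltf*-KO. *Rhoa* was the 1 gene of the 16 tested without overlap between genotypes, beside 8.46% of all tested genes.

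**Figure D5:**
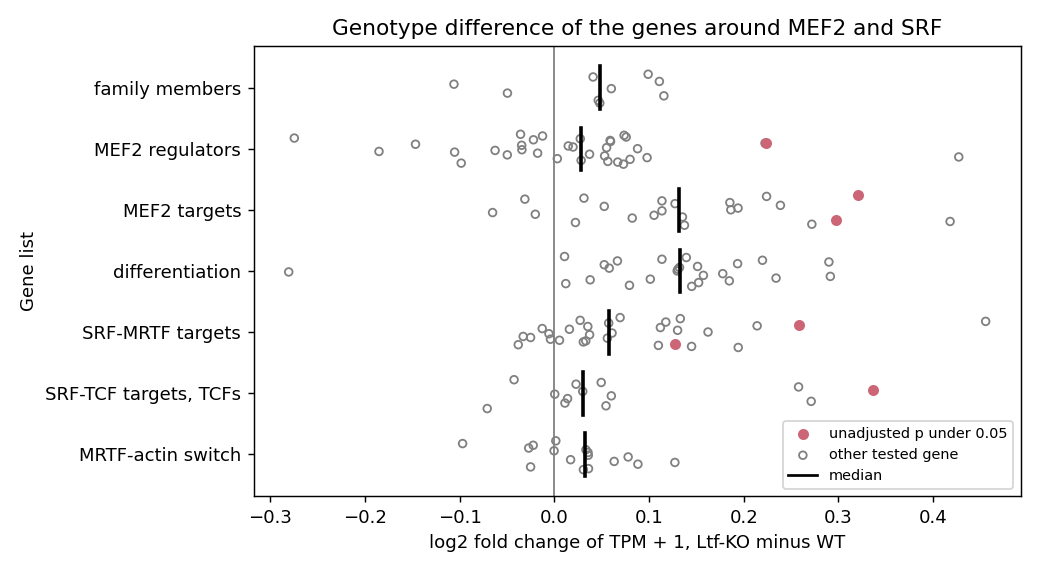
log2 fold change of TPM + 1, *Ltf*-KO minus WT, of each tested gene (points) in the family and in 6 lists of genes around MEF2 and SRF, with list medians (black bars) and genes at an unadjusted p under 0.05 filled. The filled points, *Camk2g*, *Mb*, *Xirp2*, *Pdlim7*, *Tagln* and *Egr2*, all lie above 0, and none had an adjusted p under 0.05. Among all tested genes, 2.01% were higher and 1.78% lower in *Ltf*-KO at an unadjusted p under 0.05. *Egr2*, *Mb* and *Tagln* lost that call in 8 of 12, 4 of 13 and 3 of 13 alternatives.

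*Tagln* and *Acta2* are also markers of smooth muscle and pericytes, and *Mef2c*, *Srf* and *Mrtfa* are expressed in such cells and in endothelium. The 12 smooth muscle and pericyte markers, of which 6 had a mean of at least 1 TPM, summed to 546 to 632 TPM in WT and 623 to 742 TPM in *Ltf*-KO SCs, most of it *Acta2* at 458 ± 44.04 and 526 ± 71.9 TPM (SD, n = 3 each), with *Smtn* at 36.6 ± 1.81 and 38.8 ± 4.27 TPM (SD, n = 3 each). *Pdgfrb*, a pericyte receptor, was at 4.11 ± 0.526 and 6.42 ± 1.43 TPM (SD, n = 3 each; limma unadjusted p = 0.0171, adjusted p = 0.999) with no overlap between genotypes, and the defining genes *Myh11* and *Myocd* were at 0.62 TPM or less in every library. All 6 tested genes of this list were above 0 in log2 fold change (55.7% of all tested genes), with a median of 0.19. With *Ltf*-KO replicate 2 or *Ltf*-KO replicate 3 left out, 5 were above 0. Of the 6 tested genes 2 (*Tagln* and *Pdgfrb*) had an unadjusted p under 0.05 by limma, both higher in *Ltf*-KO (2.01% of all tested genes). The same 2 were without overlap between genotypes, beside 8.46% of all tested genes. With WT replicate 1 or WT replicate 2 left out 0 had an unadjusted p under 0.05. *Pdgfrb* lost that call in 4 of 12 alternatives, those without WT replicate 1 or 2 or *Ltf*-KO replicate 1 or 2. Of the untested markers, *Cnn1*, *Myocd* and *Kcnj8* had lower means in *Ltf*-KO, and *Myh11*, *Lmod1* and *Rgs5* had higher means. *Cnn1* was at 1.4 ± 1.32 TPM in WT and 0.51 ± 0.217 TPM in *Ltf*-KO (SD, n = 3 each). The 12 fibroblast markers, 8 of them with a mean of at least 1 TPM, summed to 147 to 166 TPM in WT and 147 to 200.2 TPM in *Ltf*-KO, with *Col3a1*, *Postn* and *Col1a2* the most abundant. All 8 tested fibroblast genes were above 0 in log2 fold change, with a median of 0.31, and 0 passed at either p by limma. With WT replicate 1, *Ltf*-KO replicate 1 or *Ltf*-KO replicate 3 left out, 7 of 8 were above 0. All 3 tested macrophage genes were below 0, with a median of -0.11 and 0 at either p by limma. With WT replicate 2, WT replicate 3 or *Ltf*-KO replicate 3 left out, 2 of 3 were below 0. *Cd68* was the 1 gene of these 3 without overlap between genotypes, beside 8.46% of all tested genes. Above 0 were 3 of 5 tested endothelial genes and 8 of 9 tested Schwann and glial genes. The endothelial count was 1 of 5 without WT replicate 2 and 4 of 5 without WT replicate 3. The Schwann and glial count was 5 of 9 without *Ltf*-KO replicate 2. Without WT replicate 1 it was 4 of 9, with a median of -0.030. The 10 endothelial markers summed to 8.58 to 20.1 TPM in WT and 8.29 to 17.02 TPM in *Ltf*-KO, the 10 macrophage markers to 12.3 to 18.3 and 10.1 to 12.96 TPM, and the 10 Schwann and glial markers to 32.9 to 53.8 and 40.2 to 53.1 TPM. Their part in the levels of the members was not tested.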

How the data were processed

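RNA of 6 SC libraries, 3 WT and 3 *Ltf*-KO, was analysed. The authors deposited TPM values, which were extracted and normalized by the sequencing company's protocol. The submitters' processing notes name the build GRCm39, while the aligner, counting tool and annotation release are not given in the sources used here. Annotation and promoters here are of GRCm38, matched by name and identifier. TPM was compared between genotypes with limma 3.58.1 in R 4.3.3 (lmFit, eBayes with a variance trend) on log2(TPM + 1), pseudocount 1, for genes averaging 1 TPM or more, two-sided, with a p threshold of 0.05. The fit was tested on simulated data. The members, the gene lists, tests and alternatives were chosen with earlier results of these data known. The genes named were the members, *Ltf*, the 3 most abundant genes of each list with up to 4 at the lowest unadjusted p under 0.05, and the 3 genes nearest to *Mef2c* and *Srf*. *Borcs8*, *Sgsm3*, *Lysmd4*, *Ncor1*, *Camk2a*, *Cdkn1c*, *Ptprc*, *Myh11*, *Myocd*, *Cnn1*, *Kcnj8*, *Lmod1*, *Rgs5* and the genes with motif matches are named outside this rule. Of the marker lists not all such genes are named, and 1 gene of another list is not reported. Values of the lists and their genes under the alternatives were added after seeing the data. Alternatives were a pseudocount of 0.1, no filter, a mean of at least 10 TPM, quantile normalization, median-of-ratios scaling, no variance trend, the replicate number as a block and each library left out in turn.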

Additional observations from a re-analysis of the deposited data

How the results depend on the processing

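The count of members at an adjusted p under 0.05 was 0 under all 13 alternatives run. At an unadjusted p under 0.05 it was 0, and 0 to 1 with 1 library left out. The members' median log2 fold change of 0.048 ranged from 0.023 to 0.062 with 1 library left out. Without 1 library, *Mef2c* ranged from -0.023 to 0.32, *Srf* from -0.012 to 0.13 and *Hdac4* from -0.13 to 0.055, while the other 6 tested members did not change sign under any alternative run for them (12 for *Mef2b* and *Mrtfb*, which average under 10 TPM, and 13 for the others). The difference of *Hdac9* was -0.041, and -0.061 with a pseudocount of 0.1. Over all genes, 490 had an unadjusted p under 0.05, 890 with no filter (more genes tested) and 281 for genes averaging 10 TPM or more (fewer genes tested), and 456 to 611 with 1 library left out. The count at an adjusted p under 0.05 was 0, and 0 to 6 with 1 library left out. The cause was not tested. Libraries of the same number, each taken as its difference from the mean of its genotype, correlated at -0.041, -0.058 and -0.088 across genes. These values cannot show whether libraries of the same number shared a step of preparation, and the labels do not say. With a block for the replicate number, 380 genes and 0 members had an unadjusted p under 0.05, and the block changed no call of a member. Since TPM keeps no depth, the precision rests on the spread of 3 libraries per genotype. No macrophage or endothelial marker averaged 10 TPM, so that alternative gave no value for these lists.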

Other observations

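The 35 regulators of MEF2 summed to 1097 to 1124 TPM in the WT libraries and 1148 to 1154 TPM in the *Ltf*-KO libraries, so the sums did not overlap. This sum was picked out with its values known and was not tested. The median log2 fold change of its tested genes was 0.028, and -0.00049 without WT replicate 3.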
